A study of Homo sapiens with 12 samples.

Results

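The caveolins and cavins are the proteins that build caveolae, and 7 genes of this group were followed here: the caveolins CAV1 and CAV2, the cavins CAVIN1, CAVIN2 and CAVIN3, and 2 proteins of the caveolar neck, EHD2 and PACSIN2. They were taken by gene symbol from the 18132 genes measured, and all 7 were found, through 21 probe sets. The main probe set of a gene was selected on its mean level across all 12 arrays, the highest being taken. The group was also chosen by its relevance to earlier results of these data, in which CAVIN2 stood among the largest negative differences after heat shock and wounding. CAVIN2 is therefore described without a test, and the counts of genes past the threshold cover the other 6.

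The cells were A549, a human lung adenocarcinoma line kept as monolayers on plastic, and RNA was measured on 12 Affymetrix PrimeView arrays, 3 in each of 4 groups. Control monolayers were untreated, heat shocked monolayers were heated for 2 h, wounded monolayers were wounded and left for 4 h, and the combined group was heat shocked and then wounded. The labels do not say when monolayers that were heat shocked alone were collected, nor whether separate cultures were used within a group, so p-values measure the spread between these samples, which may be technical. The sample descriptions give samples 1 and 2 of each group codes that differ in their last letter and sample 3 a code with another number, and do not say what these mean. All values are log2 levels, and a difference of 1 is a 2-fold change.

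Caveolae are small flask-shaped pits of the plasma membrane. Caveolin 1 inserts into the inner leaflet with cholesterol, caveolin 2 joins it in hetero-oligomers, and a coat of cavins holds the pit in shape. Caveolae flatten when the membrane is stretched, which releases membrane and cavins, and they are abundant in endothelium and in the thin type I cells of the alveolus. CAVIN1 is required for caveolae to form, CAVIN2 binds phosphatidylserine and protein kinase C alpha and promotes membrane curvature, and CAVIN3 binds protein kinase C delta. EHD2 is an ATPase that forms rings at the neck and keeps caveolae at the surface, and PACSIN2 is an F-BAR protein that bends membrane there.

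The arrays carried the profile of an epithelial line, with all 6 epithelial keratin and adhesion markers well measured: KRT18 had a mean level of 13.78 and the mean over the list was 11.40 to 11.54 on every array. To mark dim probe sets, 4.79 was used, the upper quartile of 15 leukocyte and endothelial genes. This choice fixes how many of those genes lie above it, so their counts of 3 of 8 and 1 of 7 say nothing of the cells. Of the alveolar type II markers 5 of 9 were above 4.79, with SFTPA1 at 2.32, of the type I markers 2 of 6, of the adipocyte markers 1 of 4 and of the fibroblast or smooth muscle markers 5 of 10. The combined group held the array with the highest mean over 5 lists, those of type II cells, endothelium, fibroblasts and smooth muscle, adipocytes and leukocytes. For endothelium the range was 4.05 to 4.08 in control and 4.07 to 4.41 in the combined group, and the part of this shift in the results was not tested. HSPA6, a stress-induced HSP70 gene, rose after heat shock from 4.11 to 4.48 on control arrays, under the dim level, to 9.46 to 10.48 (limma adjusted p = 6.03e-08). EGR1, an immediate early gene, rose 7.94-fold after wounding (limma adjusted p = 8.19e-05). Replicate 2 of the combined group stood apart, with an interquartile range of 3.98 against 4.13 to 4.24 on the other arrays, and values that rest on it are given without it as well.

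Promoter sequences are shown for CAVIN2, the member with the widest range of values, and for PACSIN2, a member past the threshold. They are RefSeq sequences of build GRCh38.p14, from 250 bases before to 50 after the gene's start, and 5 of the 7 members were matched in that table, all but CAVIN1 and CAVIN3. Capitals mark matches to the motifs searched on both strands: the heat shock element GAANNTTC, its longer form with NNGAA added, the AP-1 site TGANTCA, the GC box GGGCGG, the TATA box TATAAA and the CArG box bound by serum response factor. The short heat shock element lies within the long one. The CAVIN2 window is chr2:191847039-191847338 on the minus strand and the PACSIN2 window is chr22:43015100-43015399 on the minus strand.
CAVIN2: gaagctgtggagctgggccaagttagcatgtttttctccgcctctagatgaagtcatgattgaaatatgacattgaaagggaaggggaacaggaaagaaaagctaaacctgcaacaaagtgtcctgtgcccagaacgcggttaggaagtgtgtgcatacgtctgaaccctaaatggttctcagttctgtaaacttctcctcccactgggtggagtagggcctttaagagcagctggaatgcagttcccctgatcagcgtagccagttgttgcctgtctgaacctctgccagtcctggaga
PACSIN2: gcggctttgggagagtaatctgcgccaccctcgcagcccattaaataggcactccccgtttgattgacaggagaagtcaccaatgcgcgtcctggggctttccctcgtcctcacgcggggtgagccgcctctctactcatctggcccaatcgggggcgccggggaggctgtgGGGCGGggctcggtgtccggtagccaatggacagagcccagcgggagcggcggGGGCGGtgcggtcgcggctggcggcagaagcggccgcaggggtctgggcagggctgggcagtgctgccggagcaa
The CAVIN2 window held none of the 6 motifs, so it carries no capitals, and its GC content was 49.3%, against a median of 58.7% over 35116 promoters. PACSIN2 held 2 GC boxes and had 68.7% GC. GC boxes stood in 45.0% of all promoters, and among the other matched members CAV1 held 3, CAV2 held 6 and EHD2 held 1. No match to either heat shock element, the AP-1 site, the TATA box or the CArG box was found in the 5 windows. CAV1, CAV2 and PACSIN2 had 3, 2 and 6 promoters listed, and only the one nearest the gene's start was searched. In all promoters the long and short heat shock elements occur in 0.49% and 6.77%, and the others in 7.71%, 11.5% and 1.29%. The matches describe letters in a 300-base window and nothing about binding.

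CAVIN2 was the member whose level varied most between groups. Its 3 control arrays read 7.87, 7.66 and 7.73, the heat shocked arrays 7.21, 7.25 and 7.06, the wounded arrays 6.80, 6.75 and 6.87, and the arrays of the combined group 6.18, 5.43 and 5.76. The order was control, heat shock, wounded and combined, from high to low, and no 2 groups overlapped. Arrays lay entirely below control for 20.8%, 13.9% and 22.7% of all genes after heat shock, wounding and both, and nothing is read from CAVIN2 being among them. The group means were 7.75 ± 0.11, 7.17 ± 0.10, 6.81 ± 0.06 and 5.79 ± 0.37 (SD, n = 3 each). Against control, CAVIN2 was 1.49-fold lower after heat shock (a log2 difference of -0.58 ± 0.14, SE), 1.92-fold lower after wounding (-0.94 ± 0.14) and 3.90-fold lower after both (-1.96 ± 0.14). These folds are descriptive, and in RNA from whole monolayers fewer cells with the transcript and less of it per cell cannot be told apart.

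The 3 arrays of the combined group were the least even for this gene. The array with the lowest CAVIN2 level, 5.43, was replicate 2, the array that stood apart. Without it the difference between the combined group and control was -1.78 ± 0.11. Within wounded monolayers, heat shock went with a CAVIN2 level 2.03-fold lower, a log2 difference of -1.02 ± 0.14, which was -0.84 without that array. Within heat shocked monolayers, wounding went with a level 2.61-fold lower, -1.39 ± 0.14, and -1.21 without that array. The 2 single differences add up to -1.52, and the measured difference after both was -1.96, which leaves -0.44 ± 0.20 beyond their sum. Without replicate 2 of the combined group that remainder was -0.26 ± 0.15. Counted from the lowest difference among 18132 genes, CAVIN2 ranked 179 in the heat shocked group, 7 in the wounded group and 3 in the combined group. The gene was chosen with its fall in these data known, so nothing is read from these ranks.

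A second CAVIN2 probe set gave the same order of group means. It read 7.07, 6.86 and 6.92 in control, 6.40, 6.58 and 6.29 after heat shock, 6.01, 5.95 and 6.45 after wounding, and 5.19, 5.14 and 5.15 after both. The heat shocked and wounded groups overlapped on it, and the combined group lay apart from all others with little spread. Its differences from control were -0.53 ± 0.12, -0.81 ± 0.12 and -1.79 ± 0.12. The remainder beyond the sum of the single differences was -0.45 ± 0.17. On this probe set the array that stood apart read 5.14 beside 5.15 and 5.19, so the order did not rest on it. The combined-group mean of 5.16 was close to 4.79, the level of dim probe sets.

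**Figure D1:**
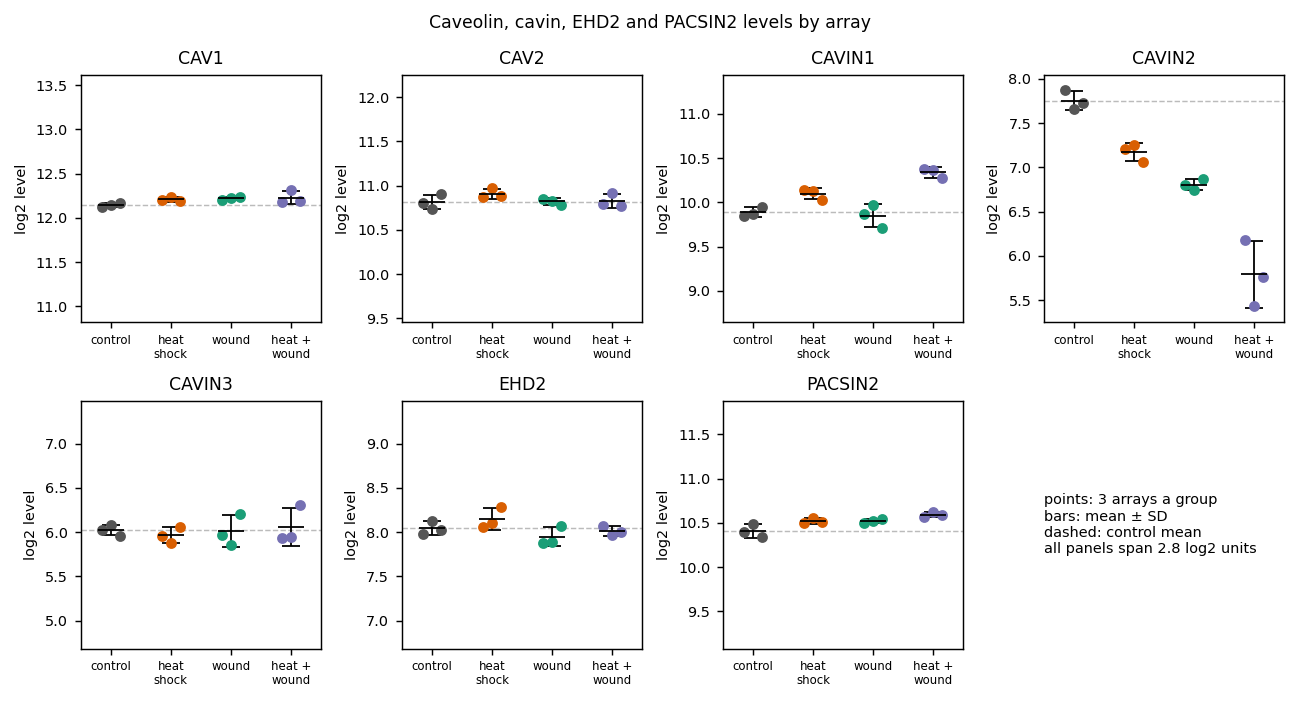
Log2 level (y axis) of the 7 genes by group (x axis), with a point for each of 3 arrays a group, bars for the mean ± SD and a dashed line at the control mean; every panel spans 2.8 log2 units. CAVIN2 went from 7.75 in control to 5.79 after heat shock and wounding, CAVIN1 from 9.89 to 10.34, and the other members had group means within 0.18 of control.

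CAVIN1, the cavin that caveolae cannot form without, rose after heat shock and wounding together. Control arrays read 9.85, 9.87 and 9.95, heat shocked arrays 10.14, 10.13 and 10.03, wounded arrays 9.87, 9.97 and 9.71, and combined arrays 10.38, 10.37 and 10.27. The combined group lay above every other array, the heat shocked group above control, and wounded and control arrays overlapped. Against control the rise was 1.37-fold, a log2 difference of 0.45 ± 0.07 (SE, n = 3; limma adjusted p = 0.000788). Against wounding alone it was 1.41-fold, 0.49 ± 0.07 (limma adjusted p = 0.00102). Both calls held without any single array, with adjusted p of 0.00349 and 0.00439 without replicate 2 of the combined group.

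In the other comparisons CAVIN1 did not pass on its main probe set. Heat shock alone differed from control by 0.21 ± 0.07 (limma adjusted p = 0.0875), wounding alone by -0.04 ± 0.07 (adjusted p = 0.898), the combined group from heat shock alone by 0.24 ± 0.07 (adjusted p = 0.102) and heat shock from wounding by 0.25 ± 0.07 (adjusted p = 0.0519). The order of means was thus combined, heat shock, control and wounded, and each pair of neighbours in it missed the threshold. Leaving out wounded replicate 2 brought heat shock against wounding past it, at 0.31 and an adjusted p of 0.0361. The interaction, which asks whether the response to both treatments differs from the sum of the single ones, was 0.28 ± 0.11 and did not pass (adjusted p = 0.625).

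The probe sets of CAVIN1 differed in the size of the heat shock response. On a second probe set CAVIN1 read 8.94, 9.13 and 9.06 in control, 9.48, 9.60 and 9.56 after heat shock, 9.24, 9.14 and 9.24 after wounding, and 9.91, 9.91 and 9.71 after both. On the dimmest probe set control arrays read 6.66, 6.98 and 6.98, heat shocked arrays 7.52, 7.41 and 8.06, wounded arrays 7.16, 7.07 and 7.28, and combined arrays 7.78, 7.81 and 7.74. Heat shocked arrays were above every control array on each of the 3 probe sets. In a fit over all 44987 probe sets with 1 symbol each, the heat shock difference from control was 0.50 ± 0.08 (limma adjusted p = 0.00168) and 0.79 ± 0.14 (adjusted p = 0.00389) on the second and the dimmest. The main probe set had an adjusted p of 0.126 in that fit. By their names, the second is of the type whose probes may partly match other sequences, and the main probe sets of CAVIN1, CAVIN2, CAVIN3, EHD2 and PACSIN2 are of the type shared by several transcripts. The combined group differed from control by 0.80 ± 0.08 and 0.90 ± 0.14 on these (adjusted p = 1.77e-05 and 0.000698). Its difference from heat shock alone was 0.30 and 0.11 (adjusted p = 0.0770 and 0.773), and the interaction was 0.13 and -0.19, positive on one probe set and negative on the other. The call for heat shock alone therefore depended on the probe set, and the calls for the combined group against control and against wounding did not.

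**Figure D2:**
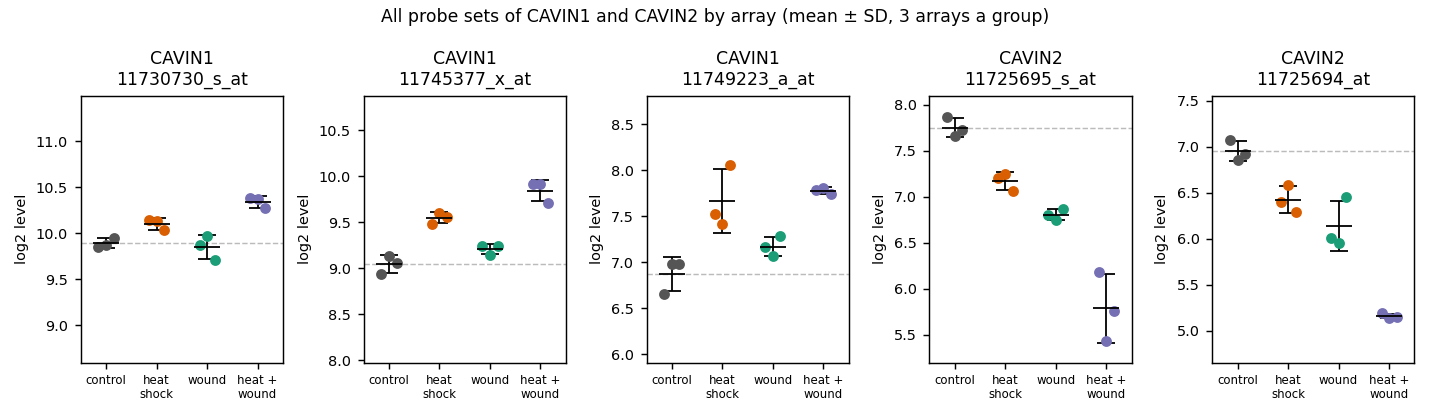
Log2 level (y axis) on the 3 probe sets of CAVIN1 and the 2 of CAVIN2 by group (x axis), with a point for each array and the mean ± SD of 3 arrays; every panel spans 2.9 log2 units. Heat shocked arrays lay above control on every CAVIN1 probe set, by 0.21, 0.50 and 0.79 on average, and the combined arrays were lowest on both CAVIN2 probe sets, at 5.43 to 6.18 and 5.14 to 5.19.

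CAVIN3, the cavin that binds protein kinase C delta, was read through 1 probe set. Its arrays lay between 5.86 and 6.31 in all 4 groups, which overlapped throughout. The difference from control was -0.06 ± 0.11 in the heat shocked group, -0.01 ± 0.11 in the wounded group and 0.04 ± 0.11 in the combined group (limma adjusted p = 0.819, 0.986 and 0.850). The 95% interval of the last ran from -0.20 to 0.28. After the combined treatment CAVIN1 was thus higher and CAVIN2, not tested, lower, and no direction was read for CAVIN3. CAVIN1 was the only 1 of the 2 tested cavins to pass.

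The caveolins had high and even levels. CAV1 read 12.12, 12.14 and 12.17 in control and 12.18, 12.32 and 12.19 in the combined group, with the single treatments at 12.19 to 12.24. Every treated array lay above every control array, but the difference after both was 0.09 ± 0.06 (limma adjusted p = 0.346), with a 95% interval from -0.04 to 0.22. After heat shock and after wounding CAV1 differed by 0.07 ± 0.06 and 0.08 ± 0.06 (adjusted p = 0.558 and 0.668). The order of means was combined, wounded, heat shock and control, and no neighbours differed past the threshold. The first place of the combined group rested on its replicate 2, at 12.32, the array that stood apart. Its other arrays, at 12.18 and 12.19, lay below the wounded mean of 12.22 and the heat shock mean of 12.21. With 1 array left out, the difference after both was 0.04 at its lowest. Of the 4 CAV1 probe sets 3 held distinct values, and their differences after both treatments were 0.09, 0.08 and 0.07.

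CAV2, the neighbour of CAV1 on chromosome 7, read 10.80, 10.74 and 10.90 in control, 10.87, 10.97 and 10.88 after heat shock, 10.85, 10.83 and 10.78 after wounding, and 10.79, 10.92 and 10.77 after both. Control arrays overlapped with each treated group. The differences from control were 0.09 ± 0.07, 0.01 ± 0.07 and 0.01 ± 0.07 (limma adjusted p = 0.459, 0.986 and 0.931), the last with a 95% interval from -0.14 to 0.16. The other CAV2 probe sets, 2 with identical values, had a difference of -0.13 ± 0.10 after both treatments (adjusted p = 0.404), opposite in sign to the main probe set. No direction was therefore read for this gene.

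At the caveolar neck, PACSIN2 read 10.40, 10.49 and 10.34 in control, 10.50, 10.56 and 10.51 after heat shock, 10.50, 10.52 and 10.54 after wounding, and 10.57, 10.62 and 10.59 after both. All treated arrays lay above all control arrays. The combined group rose by 0.18 ± 0.06, 1.14-fold (limma adjusted p = 0.0386). This call was lost in 8 of the 12 fits that leave out 1 array: without control replicate 1 or 3, heat shock replicate 1, wounded replicate 1 or 2, or any replicate of the combined group (adjusted p from 0.0548 to 0.134). Both single treatments differed from control by 0.11 ± 0.06 (adjusted p = 0.261 and 0.471). In the fit over all 44987 probe sets, its other probe sets had differences of 0.28 ± 0.11 and 0.15 ± 0.11 after both. Neither was past the threshold (limma adjusted p = 0.108 and 0.417), and the main probe set did not pass in that fit either (adjusted p = 0.0672).

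EHD2, the ATPase of the neck, read 7.98, 8.13 and 8.03 in control, 8.06, 8.10 and 8.29 after heat shock, 7.88, 7.89 and 8.07 after wounding, and between 7.97 and 8.07 after both. The groups overlapped throughout. The differences from control were 0.10 ± 0.08, -0.10 ± 0.08 and -0.03 ± 0.08 (limma adjusted p = 0.510, 0.697 and 0.821). The 95% interval after both ran from -0.21 to 0.14. Its other 4 probe sets had control means of 4.13 to 4.86, near or under the level that marks dim probe sets, and none passed after both treatments (adjusted p of 0.308 to 0.877). The dimmest of them rose after heat shock, from 4.13 to 4.50 (0.37 ± 0.09; adjusted p = 0.0251), where the main probe set did not pass.

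Among the 6 tested members, none passed after heat shock alone or after wounding alone, where limma called 12.9% and 3.57% of all genes. At an unadjusted p under 0.05 the counts were 1 and 0. The share of all genes at that unadjusted cut is not given, and the percentages here are for the adjusted threshold. Nothing is therefore read from the unadjusted counts, here or in the lists below. After both treatments 2 of the 6 passed, against 23.1% of all genes and 8.66% in the upward direction, and both had positive differences. With only 6 genes, nothing is read about the members from this count. Against wounding alone 1 of 6 passed (background 14.9%, and 6.31% upward), against heat shock alone 0 (4.30%; 1 at an unadjusted p under 0.05), and heat shock against wounding 0 (10.5%; 2 unadjusted). No member passed the interaction, which limma called for 0.00552% of genes, and 1 did at an unadjusted p under 0.05. The median difference of the 6 after both treatments was 0.06, and that of all genes -0.01. Arrays lay entirely above control for 3 of the 6 in the heat shocked group, 2 in the wounded group and 3 in the combined group, against 10.5%, 7.97% and 14.7% of all genes. The 3 comparisons with control share the control arrays.

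**Figure D3:**
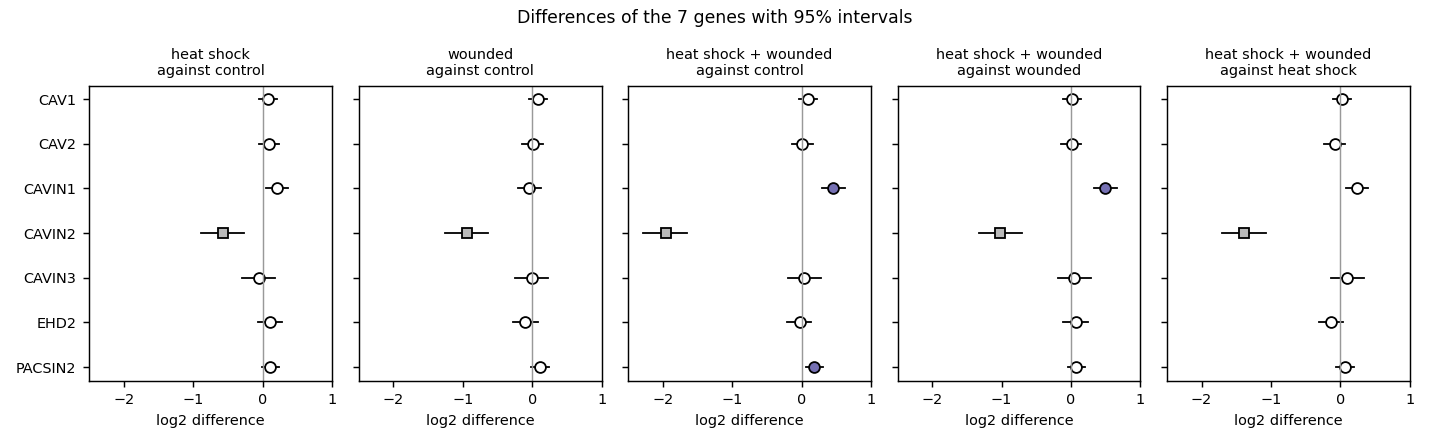
Log2 differences (x axis) of the 7 genes (y axis) in 5 comparisons, with 95% intervals; filled circles passed the limma threshold, open circles did not, and grey squares are CAVIN2, which was not tested. CAVIN2 lay at -0.58, -0.94 and -1.96 against control. Its intervals are drawn for description only, because the gene was chosen with its fall known, and nothing is read from where they lie. CAVIN1 at 0.45 and 0.49 was past the threshold against control and against wounding in the combined group.

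The other genes of the pathway were read from lists. Over all genes 4.93%, 2.27% and 8.66% rose and 7.92%, 1.31% and 14.4% fell after heat shock, wounding and both. Of 8 further genes, 1 rose in the heat shocked group, 2 in the wounded group and 3 in the combined group, and none fell. They belong to the families of the caveola coat and neck, except ROR1, a receptor gene. ROR1 differed by -0.09 ± 0.15 after both (limma adjusted p = 0.725). The median difference of the 8 after both was 0.13, against -0.01 for all genes. EHD1, a paralog of EHD2 that acts in endocytic recycling, was the one past the threshold in all 3. It read 8.63, 8.62 and 8.92 in control, 9.37, 9.34 and 9.23 after heat shock, 9.12, 9.21 and 9.24 after wounding, and 9.69, 9.93 and 9.84 after both. Neither single treatment overlapped with control, and the combined group lay above all. EHD1 rose 1.51-fold after heat shock (0.59 ± 0.09; limma adjusted p = 0.00123), 1.38-fold after wounding (0.46 ± 0.09; adjusted p = 0.0127) and 2.13-fold after both (1.09 ± 0.09; adjusted p = 3.87e-06). With the mean of all EHD1 probe sets these differences were smaller, 0.24, 0.29 and 0.52, and still past the threshold (adjusted p = 0.0424, 0.0354 and 0.000119). Over the single treatments, both together added 0.63 to wounding and 0.50 to heat shock (adjusted p = 0.000750 and 0.00744). With the mean of all EHD1 probe sets these were 0.23 and 0.29 (limma adjusted p = 0.0416 and 0.0335). The wounding call was lost without control replicate 1 or 2 or wounded replicate 2 (adjusted p = 0.0722, 0.0691 and 0.0633).

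EHD4, another EHD ATPase, rose by 0.49 ± 0.06 after both, 1.40-fold (limma adjusted p = 0.000146). It read 8.86, 8.80 and 8.87 in control and 9.21, 9.41 and 9.37 in the combined group, with no overlap. After wounding alone it rose by 0.26 (adjusted p = 0.0480), a call lost in 10 of 12 fits without 1 array, all except those without replicate 1 or 2 of the combined group. EHD3 differed by 0.13 ± 0.08 after both (adjusted p = 0.292). EHD2 thus differed by -0.03 where EHD1 and EHD4 rose; the difference between paralogs was not tested. CAVIN4, the muscle cavin, rose by 0.57 after both (adjusted p = 0.0114), but from 3.16 to 3.73, under the level that marks dim probe sets. CAV3, the muscle caveolin, differed by 0.13 ± 0.12 (adjusted p = 0.512), PACSIN1 by 0.13 and PACSIN3 by -0.04.

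Of 8 measured genes of caveola dynamics and caveolin kinases, 1 rose and 1 fell after heat shock, none passed after wounding (2 at an unadjusted p under 0.05), and 3 rose and 1 fell after both, with a list median of 0.03. PRKCA, the protein kinase C alpha that CAVIN2 binds, read 10.03, 10.07 and 9.87 in control, 10.47, 10.45 and 10.44 after heat shock, 10.22, 10.14 and 10.06 after wounding, and 10.69, 10.73 and 10.76 after both. Heat shocked arrays lay above all control and wounded arrays, and the combined group above these. It rose 1.38-fold after heat shock (0.46 ± 0.07; limma adjusted p = 0.000934) and 1.67-fold after both (0.74 ± 0.07; adjusted p = 9.28e-06), and both calls held without any single array. On the PRKCA probe set with the largest SD the differences were 0.90 and 1.28. ABL1 and ABL2, which encode tyrosine kinases, rose by 0.58 ± 0.08 and 0.40 ± 0.08 after both (adjusted p = 0.000129 and 0.00210), and ABL2 by 0.25 with the mean of its probe sets. YES1, a SRC family kinase gene, fell by 0.24 (adjusted p = 0.0143, and 0.0521 without replicate 3 of the combined group). SRC itself differed by 0.01 ± 0.07 (adjusted p = 0.909). FYN, of the same list, passed in no comparison with control. It was higher by 0.50 in heat shock against wounding (adjusted p = 0.00629), and the call held without any single array. DNM2, the dynamin that cuts vesicle necks, fell by 0.25 after heat shock (adjusted p = 0.0404), a call lost in 8 of 12 fits without 1 array: without control replicate 1 or 2, any heat shock replicate, wounded replicate 1 or 2, or combined replicate 1. On the DNM2 probe set with the largest SD the difference was 0.04 (adjusted p = 0.926), of the opposite sign.

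**Figure D4:**
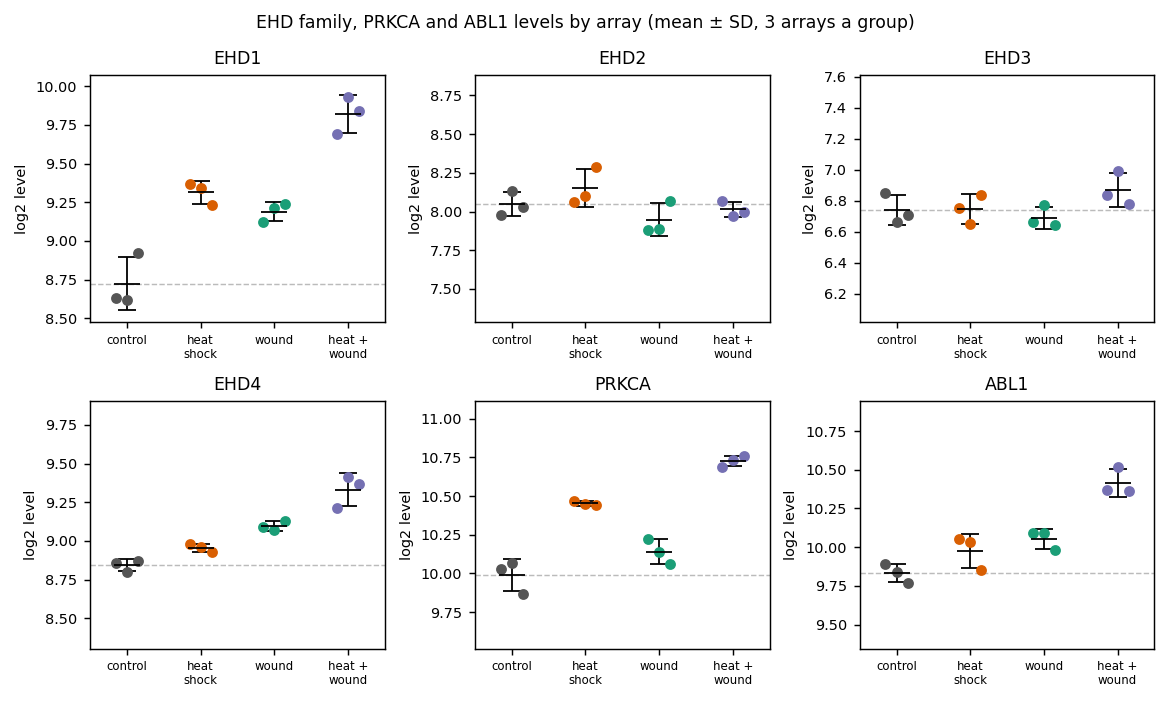
Log2 level (y axis) of the 4 EHD genes, PRKCA and ABL1 by group (x axis), with a point for each array and the mean ± SD of 3 arrays; every panel spans 1.6 log2 units. EHD1 went from 8.73 in control to 9.82 in the combined group, EHD4 from 8.84 to 9.33, PRKCA from 9.99 to 10.73 and ABL1 from 9.84 to 10.42, while EHD2 and EHD3 differed by -0.03 and 0.13.

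Flotillins and stomatin, which scaffold other cholesterol-rich domains, had 0 of 3 past the threshold against control in each treated group (1, 1 and 2 at an unadjusted p under 0.05, limma). FLOT1 was higher by 0.32 ± 0.06 in the combined group than after wounding alone (limma adjusted p = 0.00444). In heat shock against wounding FLOT1 was higher by 0.27 and STOM by 0.28 (adjusted p = 0.0139 and 0.0353). These 2 calls were lost in 2 and 7 of the 12 fits without 1 array. Of 5 measured genes of caveolin 1 turnover, VCP, the ATPase that helps sort ubiquitinated caveolin 1 to lysosomes, fell by 0.27 after both (adjusted p = 0.0183). That call was lost without control replicate 1 or 2 or combined replicate 2 (adjusted p = 0.0541, 0.0571 and 0.0661). None of the 5 passed after either single treatment (1 and 0 unadjusted). ZNRF1, a ubiquitin ligase of caveolin 1, differed by 0.00 ± 0.09. In the clathrin coat, the other main endocytic coat, 0 of 12 genes passed after heat shock (2 unadjusted), 1 rose after wounding and 2 fell after both, with a list median of -0.04. EPS15, an endocytic adaptor, fell by 0.25 after both (adjusted p = 0.00872), and the call held without any single array. On the EPS15 probe set with the largest SD it fell by 0.82. AP2B1, a subunit of the AP2 adaptor, fell by 0.20 after both (adjusted p = 0.0431). Its call was lost without control replicate 2 or 3, heat shock replicate 1, wounded replicate 1 or 2, or any replicate of the combined group (adjusted p from 0.0533 to 0.166), and with the mean of its probe sets the difference was -0.05 (adjusted p = 0.590). FCHO2, which starts clathrin pits, rose by 0.32 after wounding (adjusted p = 0.0382), a call lost without any control or wounded replicate or heat shock replicate 1 or 2 (adjusted p from 0.0521 to 0.158). Heat shock against wounding gave FCHO2 a difference of -0.49 (limma adjusted p = 0.00154), and that call held without any single array.

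The genes whose pattern over the 12 arrays was most like that of CAVIN2 were EHF, PKDCC and EDN2. Likeness is the root mean square difference of log2 levels after centring each gene on its mean, and it was 0.21, 0.24 and 0.29. EHF, which encodes an epithelial ETS transcription factor, had group means of 7.67, 7.13, 6.78 and 6.09 in control, heat shock, wounded and combined arrays. PKDCC, a secreted tyrosine kinase gene, went from 8.35 to 6.63, and EDN2, which encodes endothelin 2, from 9.34 to 6.97. For CAVIN1 the nearest genes were TRIM56, FBXL18 and ASPHD2, at 0.08, 0.08 and 0.09, with combined-group differences from control of 0.48, 0.53 and 0.38. For CAV1 they were POLR2F, STK24 and NACA, at 0.03, 0.04 and 0.04, and for PACSIN2 the nearest was SKAP2, at 0.03. All these genes were picked for likeness, so their similar values follow from the choice. For a member with even levels, such as CAV1, a small value mainly marks another gene with even levels. Shared regulation was not tested.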

How the data were processed

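RNA of 12 A549 samples was measured on PrimeView arrays, 1 array a sample, from 100 ng of total RNA each. The authors deposited log2 probe set levels. The submitters' processing notes name RMA and Affymetrix Expression Console; their versions were not given in the sources used here. Scale was judged as log2 from the range of the values. RMA gives arrays a common distribution and can compress differences at dim and bright ends. No scanner files were used here, so there is no detection call.

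Of 49293 probe sets 1 had a missing value and was left out. The platform annotation gave 1 symbol to 44987, several to 1832 and none to 2473. For each of 18132 genes the brightest probe set on average was used. All genes and 12 arrays entered a fit of the 4 group means with limma 3.58.1 in R 4.3.3 (8 residual degrees of freedom, no replicate block), over 7 comparisons. The call was an adjusted p (Benjamini-Hochberg) under 0.05. Every adjusted p is limma's. Fits over probe sets adjust over 44987.

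The members and lists were chosen with earlier results of these data known. The text names the members, up to 4 called genes of each list and comparison, 4 treatment check genes and the 3 genes most like a member. The replicate numbers in the titles were not used to pair the arrays in the main fit. Alternatives are given in the closing section.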

Additional observations from a re-analysis of the deposited data

How the results depend on the processing

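Alternatives were other scalings, other probe set choices, a filter on low levels, other estimates of spread, the groups compared alone, a replicate block, samples 1 and 2 of each group averaged (the codes in their descriptions share a number), a fold threshold, and leaving out each array. Over 1113 alternative values of member differences, 1086 were counted as unchanged, by a rule that differed between tested members and CAVIN2. Values of tested members had to keep their side of the threshold and, where called, their direction. CAVIN2 has no call, so its values had to stay within the replicate SD of the main value. Among the tested members 12 values lost a call and 13 gained one. The 2 CAVIN2 values that moved past the replicate SD were -0.81 (combined against wounded) and -0.24 (interaction), both with array weights. Another 60 values under the threshold changed sign. The calls of pathway list genes were less stable: of 779 alternative values 642 kept the call, 136 lost it and 1 reversed.

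The count of called members after heat shock, 0, was 1 (CAVIN1) with the mean of all probe sets, with the probe set of largest SD, with genes above the median level, with trend and robust spread, and with array weights. After both treatments the count of 2 was 1 with the mean of all probe sets, the probe set of largest SD, only the groups compared, or samples 1 and 2 averaged, which lost PACSIN2, and 1 to 2 without 1 array. It was 0 with a difference of at least 0.5 required, as was the count of 1 against wounding. Against heat shock alone the count of 0 was 1 with genes above the median level and with trend and robust spread. For heat shock against wounding, 0 was 1 with cyclic loess, the mean of all probe sets, genes above the median level, trend and robust spread, and array weights, and 0 to 1 without 1 array. DNM2 after heat shock, -0.25, was 0.04 on the probe set of largest SD; these are different probe sets.

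Same-numbered arrays correlated above 0.1 in 6 of 18 pairs of deviations from group means (-0.187 to 0.234). The cut of 0.1 is arbitrary, so whether same-numbered arrays share more than a label was not settled. With the replicate block the counts of called members stayed 0, 0, 2, 1, 0, 0 and 0 over the 7 comparisons. The counts of all genes called behind the background shares ranged, over the alternatives, from 919 to 3871 after heat shock (2330 as reported), 224 to 1436 after wounding (648) and 2475 to 4943 after both (4180). Cyclic loess moved the share of higher calls from 38.4% to 49.6% after heat shock, from 37.6% to 50.1% after both and from 42.3% to 53.1% for both against wounded; the median over all genes moved by at most 0.02. The 3 arrays a group limit the precision, more so if samples 1 and 2 are repeats of one culture.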
